A study of Homo sapiens with 15 samples.

Results

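The genes described here are 37 neighbours in band q24.31 of chromosome 12, which run in the RefSeq gene order of GRCh38.p14 as RHOF, SETD1B, PSMD9, CFAP251, BCL7A, MLXIP, LRRC43, B3GNT4, DIABLO, VPS33A, CLIP1, ZCCHC8, RSRC2, KNTC1, HCAR2, HCAR3, HCAR1, DENR, CCDC62, HIP1R, VPS37B, OGFOD2, ARL6IP4, PITPNM2, MPHOSPH9, CDK2AP1, SBNO1, KMT5A, RILPL2, SNRNP35, RILPL1, TMED2, DDX55, EIF2B1, GTF2H3, TCTN2 and ATP6V0A2. The members were chosen by their intensities on these same arrays, in which neighbours on this segment had been seen to be higher in the CD90+ fractions, so the comparisons of the CD90+ fractions with CD90-/CD133- cells are described below with no p-value for a member, and their counts are not independent evidence. Of the 37 genes, 36 had a probe set that names a single gene, out of 19775 such genes on the array, and HCAR2 had none. Of the 36, 31 had a mean intensity over 64 across the 15 arrays and are called expressed below, out of 10128 such genes on the whole array and 555 on chromosome 12.

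RNA was measured on whole-genome oligonucleotide arrays in the human ovarian cancer line PEO1, an established line kept in RPMI-1640 with serum, after staining with antibodies to the surface proteins CD90 and CD133, a dead-cell dye and sorting. Each fraction, CD90+/CD133+, CD90+/CD133- or CD90-/CD133-, has 5 arrays numbered as replicates 1 to 5. All 3 were taken from parental PEO1 cells and the labels name no other treatment. The methods call the CD90-/CD133- and CD90+/CD133- samples biological replicates, while the submitters' design text speaks of triplicates. No source says so of the CD90+/CD133+ samples, so their p-values measure only the spread between these samples, which may be technical.

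This stretch of the long arm of chromosome 12 is densely packed with genes of unrelated function, many of them needed in every dividing cell. It holds chromatin enzymes such as SETD1B and KMT5A, RNA and translation factors such as DENR and EIF2B1, sorting proteins of endosomes and the Golgi such as VPS33A and TMED2, and mitotic proteins such as KNTC1 and CLIP1. Several neighbours lie head to head, with the starts of both genes in 1 short shared stretch of DNA, while others, such as the hydroxycarboxylic acid receptors, stand beside them with a tissue-restricted pattern of their own.

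The values are linear intensities. For log2 scales every value below 16 counted as 16, so changes of dim genes are understated. Intensities of different genes come from different probes and are not compared. THY1, which encodes CD90, ranged over 728 to 2171 in CD90+/CD133+ cells, 795 to 1221 in CD90+/CD133- cells, and 57.8 to 101.3 in CD90-/CD133- cells. The summed intensity of 10 epithelial and Mullerian markers was 32683 to 45604 in CD90+/CD133+ cells, 36514 to 48919 in CD90+/CD133- cells and 51907 to 64517 in CD90-/CD133- cells. For the 4 of 6 leukocyte markers measured it was 142 to 232, 159 to 217 and 111 to 135 in the same order of fractions, with PTPRC and LYZ at 16 on every array. For 8 fibroblast markers it was 275 to 335, 256 to 289 and 348 to 413, with COL3A1, LUM and PDGFRA at 16 on every array. For 4 endothelial markers it was 109.5 to 132, 99.7 to 117 and 97.6 to 116, with CDH5 and KDR at 16 on every array. Single markers did not all follow these sums. In the same order of fractions, EPCAM was at 5959 to 7695, 7046 to 7970 and 5310 to 6432. KRT18 was at 10720 to 14634, 12025 to 13286 and 18445 to 20359. The leukocyte marker CD14 was at 67.9 to 171, 92.3 to 148 and 43.4 to 71.5. The fibroblast marker FAP was at 31.9 to 41.6, 26.5 to 44.5 and 105.6 to 196.7. The 3' minus 5' difference of control probes, a sign of RNA quality, averaged 0.05 in CD90+/CD133+ cells, 0.19 in CD90+/CD133- cells and 0.06 in CD90-/CD133- cells on the log2 scale for GAPDH, and 1.70, 2.46 and 1.84 for ACTB. The part of these differences in the results below was not tested.

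Most expressed members were higher in both CD90+ fractions, and none passed as lower. In CD90+/CD133- cells 27 of the 31 passed the test as higher than in CD90-/CD133- cells and 0 as lower (limma over all 19775 genes, Benjamini-Hochberg adjusted p under 0.05). Of all 10128 expressed genes, 16% passed as higher and 15.4% as lower, and of all genes tested 9.11% and 9.89%. In CD90+/CD133+ cells 27 of the 31 passed as higher than in CD90-/CD133- cells and 0 as lower, where 16.8% of expressed genes passed as higher and 16.5% as lower, and 9.6% and 10.9% of all genes tested. With the replicate number as a block, GTF2H3 also passed in CD90+/CD133+ cells, which made 28. With that block, 2300 of the 10128 expressed genes passed as higher and 2458 as lower in CD90+/CD133+ cells. In CD90+/CD133- cells 2130 and 2246 did. Over the 36 measured genes 28 passed as higher in each CD90+ fraction, and with the block 28 in CD90+/CD133- cells and 30 in CD90+/CD133+ cells, where the dim gene PITPNM2 passed too. Since the list was drawn up from these comparisons, nothing is read from how far its counts lie from those shares. In bulk RNA of a sorted fraction, fewer cells that express a gene and less RNA per cell cannot be told apart. The 2 comparisons share the CD90-/CD133- arrays, so they are not independent of each other.

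The median log2 fold change of the 31 genes was 1.28 in CD90+/CD133+ cells over CD90-/CD133- cells, or 2.44-fold, and 1.32 in CD90+/CD133- cells over CD90-/CD133- cells, or 2.50-fold. All 10128 expressed genes had medians of -0.01 and -0.03. Members with a mean over 64 in the CD90-/CD133- arrays alone, 27 of the 31, had medians of 1.37 and 1.32. The other 4 were BCL7A, MPHOSPH9, RILPL1 and ATP6V0A2. Within same-numbered pairs of arrays the median in CD90+/CD133- cells was 1.33, 1.34, 1.20, 1.40 and 1.34 for replicates 1 to 5, and in CD90+/CD133+ cells 1.33, 1.32, 1.24, 1.34 and 1.30. In each CD90+ fraction 29 of the 31 genes were higher in all 5 pairs. Of all 10128 expressed genes, 2875 were so in CD90+/CD133+ cells and 2629 in CD90+/CD133- cells. In each CD90+ fraction 27 of the 31 had every array above every CD90-/CD133- array. Of all expressed genes, 14.2% did so in CD90+/CD133+ cells and 13.4% in CD90+/CD133- cells. The median intensity of the 31 genes by array was 372 to 496 for CD90+/CD133+, 421 to 544 for CD90+/CD133- and 126 to 180.0 for CD90-/CD133- cells, while that of all expressed genes was 303 to 324 on every array.

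**Figure D1:**
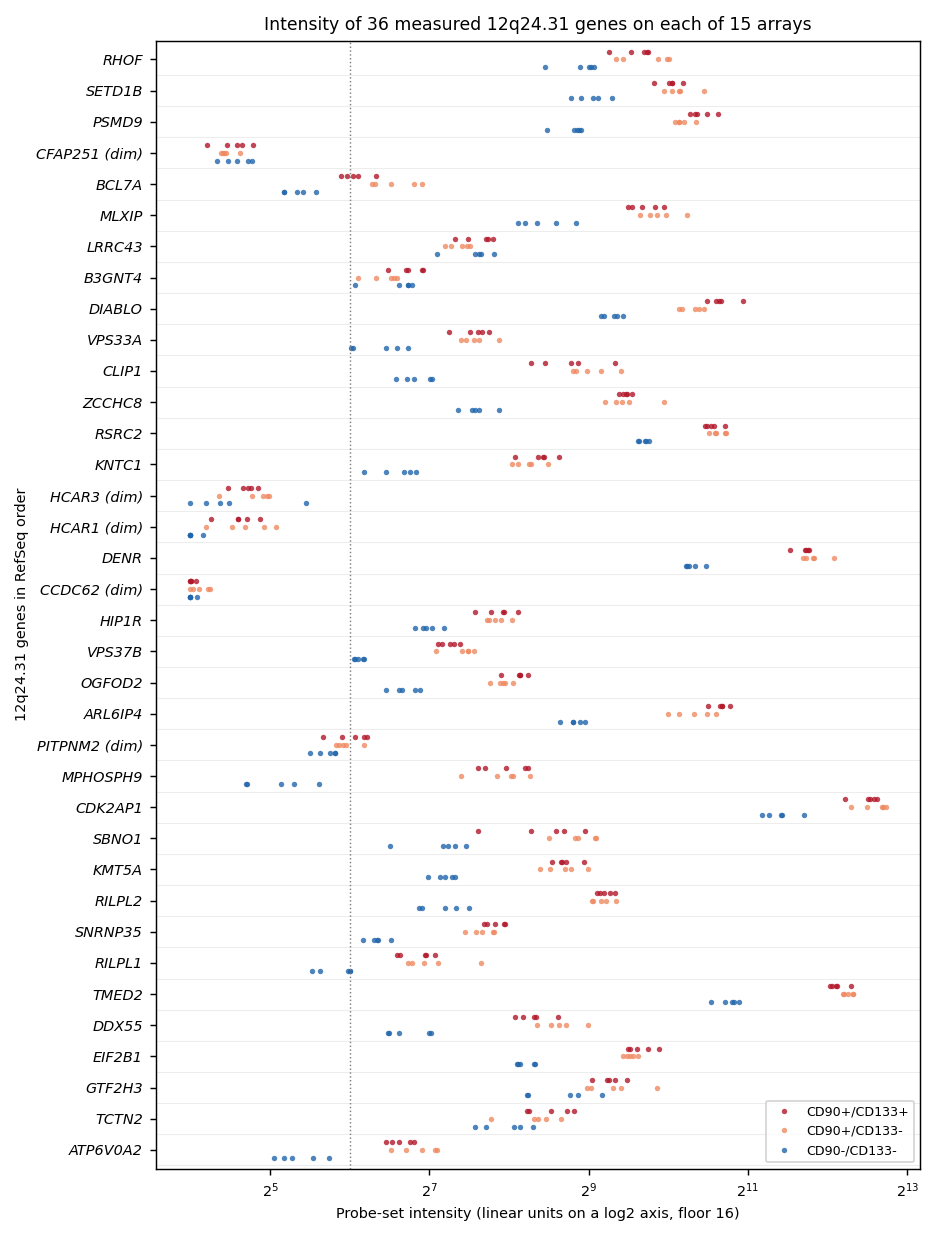
Intensity of each of 36 measured 12q24.31 genes (rows, in RefSeq order) on the 15 arrays, in linear units on a log2 axis with values under 16 drawn at 16; each point is 1 array, and the dotted line marks 64. For 27 of the 31 expressed genes the points of both CD90+ fractions lie to the right of all CD90-/CD133- points, and for LRRC43, B3GNT4, GTF2H3 and TCTN2 they overlap.

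Whether the shift was even along the block or differed by gene was described from the spread of the 31 log2 fold changes. Their SD was 0.57 in CD90+/CD133+ cells and 0.61 in CD90+/CD133- cells, against a median standard error of a single gene of 0.11 and 0.13. Over all expressed genes the SD was 0.62 and 0.61, about as wide around a median near 0. In CD90+/CD133- cells the quartiles of the 31 were 1.06 and 1.51, 22 genes lay within 0.5 of the median, and the range was -0.17 to 2.82. In CD90+/CD133+ cells the quartiles were 0.94 and 1.55, 19 genes lay within 0.5 of the median, and the range was 0.06 to 2.85. Set against each gene's own standard error, 14 of the 31 were within 2 standard errors of the members' median in CD90+/CD133- cells, 9 were further above and 8 further below. In CD90+/CD133+ cells 11 were within 2 standard errors, 10 further above and 10 further below. In CD90+/CD133- cells 8 genes were above the median of their pair in all 5 pairs and 9 below it in all 5. In CD90+/CD133+ cells 8 were above in all 5 and 10 below.

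MPHOSPH9 had the largest log2 fold change of the members in both fractions at the floor of 16. This gene encodes an M-phase phosphoprotein of the centrosome that restrains cilium formation, and its intensities were 301, 294, 196, 250.2 and 208 on the CD90+/CD133+ arrays, 264, 261, 231, 308 and 168 on the CD90+/CD133- arrays, and 39.3, 35.2, 48.9, 26.3 and 26.0 on the CD90-/CD133- arrays. The highest CD90-/CD133- array was at 48.9, and the lowest array of a CD90+ fraction at 168. Over CD90-/CD133- cells, its log2 fold change was 2.85 (standard error 0.21) in CD90+/CD133+ cells and 2.82 (standard error 0.22) in CD90+/CD133- cells. A further probe set over 64 gave 2.49 and 2.53 in the same order. All its CD90-/CD133- arrays were under 64, so its mean passed that limit through the CD90+ fractions. With values under 64 set to 64 it was at 1.94 and 1.92, below RILPL2 in both fractions and below CLIP1 in CD90+/CD133- cells, and the mean of its probe sets gave 2.00 and 2.02. CLIP1, whose protein binds the growing ends of microtubules, had intensities of 645, 464, 309, 439 and 350.99 on the CD90+/CD133+ arrays, 504, 447, 457, 571 and 675 on the CD90+/CD133- arrays, and 129, 105, 131, 112 and 95.8 on the CD90-/CD133- arrays. The groups did not overlap, and the highest value of all, 675, was CD90+/CD133- replicate 5. CD90+/CD133+ cells had a log2 fold change of 1.91 (standard error 0.20) over CD90-/CD133- cells, and CD90+/CD133- cells one of 2.21 (standard error 0.14). The mean of all its probe sets, dim ones included, gave 0.97 and 1.27. KNTC1, a kinetochore protein of the mitotic checkpoint, had 268, 348, 330.2, 343 and 395 on the CD90+/CD133+ arrays, 277, 309.6, 262, 358 and 304 on the CD90+/CD133- arrays, and 88.0, 72.4, 114, 108 and 103 on the CD90-/CD133- arrays. Its lowest and highest values in the CD90+ fractions, 262 and 395, both lay above the highest CD90-/CD133- value of 114. For KNTC1, the log2 fold changes over CD90-/CD133- cells were 1.80 (standard error 0.15) in CD90+/CD133+ and 1.65 (standard error 0.14) in CD90+/CD133- cells. Among expressed genes in the list of mitosis, microtubules and cilia, TCTN2 alone did not pass in either fraction, and the dim genes CFAP251 and CCDC62 belong to the same list.

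RILPL2, a Rab effector at the base of the cilium, had intensities of 564, 549, 643, 616 and 585 on the CD90+/CD133+ arrays, 526, 598, 651, 571 and 529.7 on the CD90+/CD133- arrays, and 117, 161, 180.0, 147 and 120.0 on the CD90-/CD133- arrays. The CD90+ values lay between 526 and 651, and the highest CD90-/CD133- value was 180.0. This gave log2 fold changes of 2.05 (standard error 0.12) in CD90+/CD133+ cells and 2.00 (standard error 0.13) in CD90+/CD133- cells. Its paralogue RILPL1, which lies close by on the chromosome, had log2 fold changes of 1.01 and 1.21, below that of RILPL2 in both fractions. All 8 expressed genes of membranes and trafficking passed as higher in both fractions, with medians of 1.16 in CD90+/CD133+ cells and 1.25 in CD90+/CD133- cells. Of the 8, RILPL1 and ATP6V0A2 had CD90-/CD133- means of 57.4 and 41.6, so they counted as expressed through the CD90+ fractions. PITPNM2 of the same list was dim and passed in neither fraction without the block. In CD90+/CD133- cells 1 of the 8 lost its call when replicate number 2, 3 or 4 was left out, and in CD90+/CD133+ cells when number 2 was. They included TMED2, a p24 cargo receptor between the endoplasmic reticulum and the Golgi (1.37 ± 0.07 and 1.504 ± 0.06, log2 fold change ± standard error in the same order of fractions), VPS37B of the ESCRT-I complex (1.13 and 1.29) and VPS33A, which drives fusion at late endosomes (1.19 and 1.21). HIP1R, which links clathrin coats to actin, was at 0.88 ± 0.11 and 0.86 ± 0.08.

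Of RNA and translation genes, 7 of 7 passed as higher in both fractions, with medians of 1.49 in each. DDX55, an RNA helicase of ribosome biogenesis, had intensities of 392, 317, 322, 289 and 269 on the CD90+/CD133+ arrays, 511, 369, 395, 327 and 421 on the CD90+/CD133- arrays, and 127, 89.2, 130.1, 97.9 and 89.9 on the CD90-/CD133- arrays. The CD90+/CD133- arrays reached higher than the CD90+/CD133+ arrays, and both stood apart from CD90-/CD133- cells. Relative to CD90-/CD133- cells, DDX55 thus had a log2 fold change of 1.58 (standard error 0.15) in CD90+/CD133+ cells and 1.92 (standard error 0.16) in CD90+/CD133- cells. ZCCHC8, a zinc-finger subunit of the nuclear exosome targeting complex, had 746, 716, 667, 711 and 689 on the CD90+/CD133+ arrays, 726, 681, 592, 647 and 983 on the CD90+/CD133- arrays, and 234, 186, 191, 197 and 164 on the CD90-/CD133- arrays. CD90+/CD133- replicate 5 was the highest array, and the highest CD90-/CD133- array was at 234. Over CD90-/CD133- cells, its log2 fold change was 1.87 (standard error 0.08) in CD90+/CD133+ cells and 1.89 (standard error 0.15) in CD90+/CD133- cells. DENR, whose product with MCTS1 helps ribosomes to reinitiate and recycle, had intensities of 3444, 2946, 3475, 3371 and 3392 on the CD90+/CD133+ arrays, 3383, 3294, 3614, 3625 and 4329 on the CD90+/CD133- arrays, and 1226, 1193, 1415, 1208 and 1294 on the CD90-/CD133- arrays. CD90+/CD133+ cells had a log2 fold change of 1.39 (standard error 0.06) over CD90-/CD133- cells, and CD90+/CD133- cells one of 1.52 (standard error 0.08). Its CD90+ arrays did not overlap with its CD90-/CD133- arrays either. The others were EIF2B1, the alpha subunit of the exchange factor that recharges the initiator-tRNA complex (1.45 ± 0.09 and 1.32 ± 0.06), SNRNP35 of the minor spliceosome (1.49 ± 0.08 and 1.32 ± 0.09), ARL6IP4 (1.84 ± 0.07 and 1.49 ± 0.12) and RSRC2, an arginine- and serine-rich coiled-coil protein (0.87 ± 0.05 and 0.94 ± 0.05). RSRC2 was below the pair's median in all 5 pairs of both comparisons.

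Of 7 genes of chromatin and transcription, 6 passed as higher in both fractions, with medians over the 7 of 1.09 in CD90+/CD133+ cells and 1.23 in CD90+/CD133- cells. SBNO1, a helicase-like nuclear protein related to fly strawberry notch, had intensities of 496, 385, 311, 411 and 196 on the CD90+/CD133+ arrays, 454, 542, 467, 544 and 364 on the CD90+/CD133- arrays, and 176, 144, 159, 151 and 91.1 on the CD90-/CD133- arrays. CD90+/CD133+ replicate 5 was the lowest CD90+ array at 196, above the highest CD90-/CD133- array at 176. For SBNO1, the log2 fold changes over CD90-/CD133- cells were 1.28 (standard error 0.27) in CD90+/CD133+ and 1.73 (standard error 0.19) in CD90+/CD133- cells. Its call in CD90+/CD133+ cells was lost without replicate number 2 and without number 4, and over all arrays or numbers left out the log2 fold change was 1.13 to 1.49. KMT5A, which monomethylates a lysine of histone tails, was at 1.52 (standard error 0.09) and 1.49 (standard error 0.12), MLXIP, a glucose-sensing transcription factor also called MondoA, at 1.28 and 1.48, and SETD1B, a histone methyltransferase of active promoters, at 0.99 (standard error 0.10) and 1.11 (standard error 0.12). CDK2AP1, a subunit of the NuRD complex, was at 1.09 and 1.18. BCL7A, a subunit of the BAF remodelling complex, lay just above the threshold on brightness with a mean intensity of 68.0, with 80.1, 62.4, 69.0, 59.2 and 65.9 on the CD90+/CD133+ arrays, 119.7, 77.8, 91.4, 79.7 and 112 on the CD90+/CD133- arrays, and 36.1, 40.4, 36.2, 42.7 and 47.6 on the CD90-/CD133- arrays. This gave log2 fold changes of 0.73 (standard error 0.10) in CD90+/CD133+ cells and 1.23 (standard error 0.14) in CD90+/CD133- cells. Its highest CD90-/CD133- array was at 47.6, and with values under 64 set to 64 its log2 fold change in CD90+/CD133+ cells shrank to 0.10 and the call was lost.

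Both genes of the proteasome and cell death list passed as higher in both fractions. PSMD9, a chaperone in the assembly of the proteasome, was at 1.63 (standard error 0.10) in CD90+/CD133+ cells and 1.39 (standard error 0.09) in CD90+/CD133- cells. DIABLO, also called Smac, which is released from mitochondria and blocks inhibitors of apoptosis, was at 1.38 (standard error 0.09) and 1.00 (standard error 0.08). ATP6V0A2, a membrane subunit of the vacuolar proton pump, was the other gene just above the threshold, with a mean intensity of 86.3 and values of 92.6, 88.1, 112, 98.3 and 108 on the CD90+/CD133+ arrays, 135, 91.6, 119.9, 105 and 137 on the CD90+/CD133- arrays, and 53.4, 36.3, 38.7, 33.2 and 46.4 on the CD90-/CD133- arrays. Relative to CD90-/CD133- cells, ATP6V0A2 thus had a log2 fold change of 1.28 (standard error 0.14) in CD90+/CD133+ cells and 1.504 (standard error 0.16) in CD90+/CD133- cells. All its CD90-/CD133- arrays were under 64. Its other probe sets had means under 64, and the brightest of them gave 0.66 and 0.87 in the same order, the rest less. Of the 3 expressed genes among receptors, sugar transfer and others, OGFOD2, of an oxygenase family, passed (1.42 ± 0.09 and 1.23 ± 0.09) and LRRC43 and B3GNT4 did not.

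LRRC43 and B3GNT4, which are next to each other in the gene order, stayed near 0 between neighbours that were higher. LRRC43, a leucine-rich repeat protein, had intensities of 210.0, 213, 222, 179 and 159 on the CD90+/CD133+ arrays, 155, 178, 169, 183 and 147 on the CD90+/CD133- arrays, and 196, 224, 190.0, 199.8 and 137 on the CD90-/CD133- arrays. The 3 groups overlapped throughout. Over CD90-/CD133- cells, its log2 fold change was 0.06 (standard error 0.15) in CD90+/CD133+ cells and -0.17 (standard error 0.13) in CD90+/CD133- cells. Its other probe set over 64 gave 0.05 and -0.15, and a further one had a mean of 16, the floor. Whether the flat values are background signal was not tested. When replicate 5 of the CD90-/CD133- cells was left out, LRRC43 passed as lower in CD90+/CD133- cells at -0.29, the 1 such call among expressed members under the settings run. B3GNT4, an enzyme that adds N-acetylglucosamine to sugar chains, had 107, 121, 119.9, 104 and 89.5 on the CD90+/CD133+ arrays, 94.2, 91.3, 80.5, 96.3 and 68.9 on the CD90+/CD133- arrays, and 110.1, 106, 106, 98.1 and 66.9 on the CD90-/CD133- arrays. Replicate 5 was the lowest of each group. CD90+/CD133+ cells had a log2 fold change of 0.16 (standard error 0.15) over CD90-/CD133- cells, and CD90+/CD133- cells one of -0.17 (standard error 0.16). The next gene on 1 side, MLXIP, and the next on the other, DIABLO, were at 1.48 and 1.00 in CD90+/CD133- cells.

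GTF2H3 and TCTN2, the other pair that did not pass, were each read from a probe set whose name marks it as able to cross-hybridize. ARL6IP4, which passed in both fractions, was read from a probe set with that mark too. Its other probe set, without the mark, gave 1.95 in CD90+/CD133+ cells and 1.54 in CD90+/CD133- cells. GTF2H3, a subunit of the transcription and repair factor TFIIH, had intensities of 611, 599, 525, 645 and 715 on the CD90+/CD133+ arrays, 505, 524, 632, 676 and 924 on the CD90+/CD133- arrays, and 303, 466, 299, 575 and 436 on the CD90-/CD133- arrays. CD90-/CD133- replicate 4 overlapped with both CD90+ fractions. For GTF2H3, the log2 fold changes over CD90-/CD133- cells were 0.61 (standard error 0.19) in CD90+/CD133+ and 0.66 (standard error 0.23) in CD90+/CD133- cells. Its second probe set, of nearly equal brightness and without that mark, gave 1.77 in each fraction (standard errors 0.17 and 0.10), and the gap of 1.11 in CD90+/CD133- cells was the largest between probe sets with a mean over 64 of any member. TCTN2, of the transition zone of cilia, had 369, 451, 422, 299 and 305 on the CD90+/CD133+ arrays, 317, 330.0, 402, 352 and 219.6 on the CD90+/CD133- arrays, and 267, 316, 209, 281 and 189.9 on the CD90-/CD133- arrays. CD90-/CD133- cells reached 316, within the range of both CD90+ fractions. This gave log2 fold changes of 0.55 (standard error 0.18) in CD90+/CD133+ cells and 0.36 (standard error 0.19) in CD90+/CD133- cells. Its other probe set had a mean under 64. Over all members, 54 of 87 single-gene probe sets had a mean over 64, and 16 members had at least 2 of these. In 13 of the 16 the log2 fold changes of the probe sets in CD90+/CD133- cells lay within 0.5 of each other, and in SBNO1 (1.21 to 1.88), KMT5A (1.26 to 1.99) and GTF2H3 (0.66 to 1.77) they lay further apart.

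Of the 36 measured genes 5 were dim. PITPNM2, a phosphatidylinositol transfer protein, lay just below the threshold with a mean intensity of 59.8 and values of 67.2, 74.5, 59.9, 72.6 and 50.9 on the CD90+/CD133+ arrays, 60.5, 62.2, 56.8, 58.1 and 72.6 on the CD90+/CD133- arrays, and 56.4, 56.3, 45.2, 53.9 and 49.4 on the CD90-/CD133- arrays. The CD90+/CD133+ group overlapped with CD90-/CD133- cells. Relative to CD90-/CD133- cells, PITPNM2 thus had a log2 fold change of 0.31 (standard error 0.12) in CD90+/CD133+ cells and 0.25 (standard error 0.09) in CD90+/CD133- cells. It passed in neither, and in CD90+/CD133+ cells it passed with the replicate number as a block and when CD90+/CD133+ replicate 5 or the whole of number 5 was left out. HCAR3, a receptor for hydroxylated fatty acids, was next at 26.1, with 22.3, 25.3, 26.5, 28.7 and 27.02 on the CD90+/CD133+ arrays, 20.4, 27.3, 30.1, 31.6 and 31.2 on the CD90+/CD133- arrays, and 14.8, 20.8, 18.3, 22.5 and 43.6 on the CD90-/CD133- arrays as deposited. CD90-/CD133- replicate 5 was its highest array of all. Over CD90-/CD133- cells, its log2 fold change was 0.19 (standard error 0.25) in CD90+/CD133+ cells and 0.30 (standard error 0.27) in CD90+/CD133- cells. HCAR1, the lactate receptor, had 22.4 in the mean and passed as higher in both fractions (0.58 ± 0.10 and 0.65 ± 0.15), with 4 of 5 CD90-/CD133- arrays at or under 16. With a floor of 64 its difference was 0 in both, and in CD90+/CD133- cells the call was also lost without replicate number 1, 2, 4 or 5. CFAP251, of cilia and flagella (mean 23.1), and CCDC62 (mean 16.6) were not called, with log2 fold changes of -0.04 and -0.002 in CD90+/CD133+ cells and -0.12 and 0.11 in CD90+/CD133- cells.

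**Figure D2:**
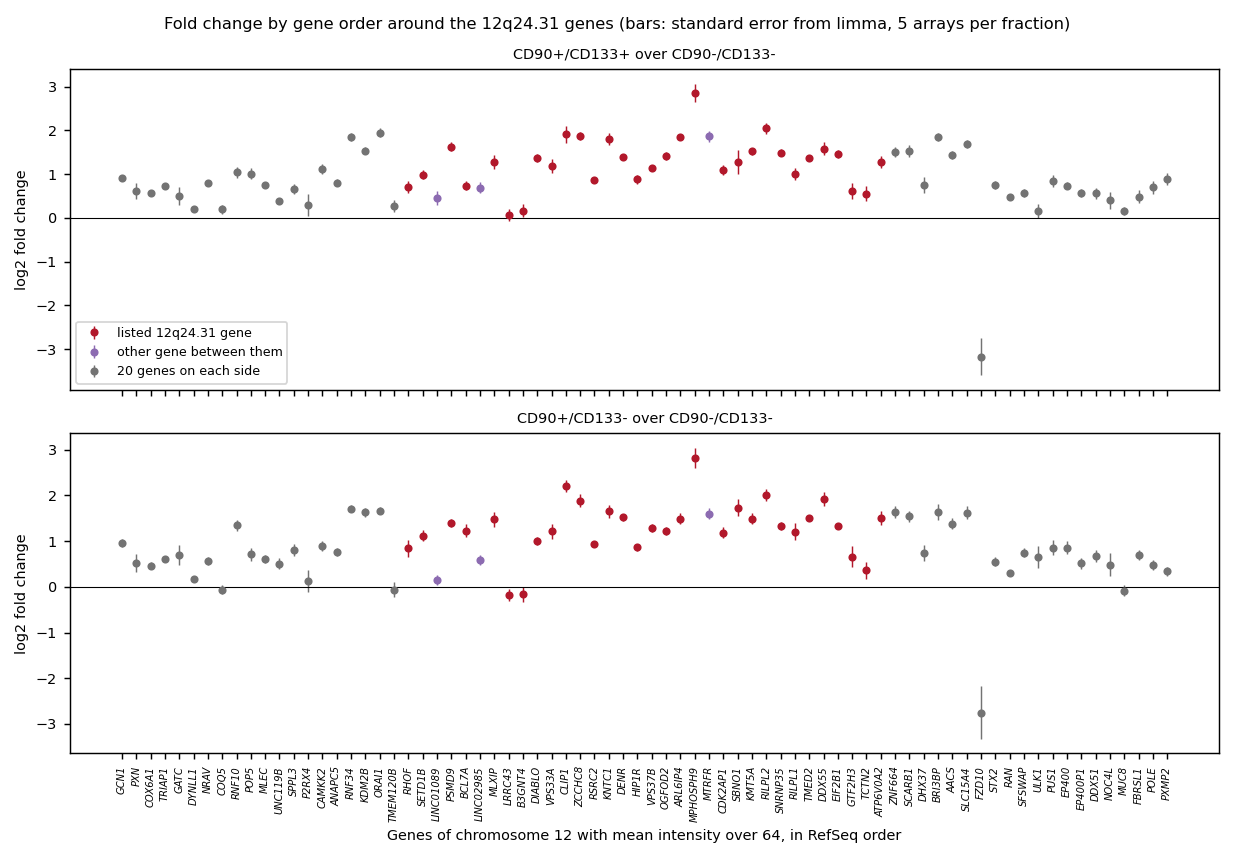
Log2 fold change (points) with its standard error from limma (bars, 5 arrays per fraction) of expressed chromosome 12 genes in RefSeq order, for CD90+/CD133+ over CD90-/CD133- cells above and CD90+/CD133- over CD90-/CD133- cells below. The listed genes hold a median of 1.28 and 1.32 with LRRC43 and B3GNT4 near 0 and MPHOSPH9 at 2.85 and 2.82, and the outermost genes on both sides are mostly between 0 and 1.

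Genes beyond the ends of the list were higher too, by less at their median. The 20 expressed genes before RHOF had a median log2 fold change of 0.74 in CD90+/CD133+ cells and 0.66 in CD90+/CD133- cells, with 16 and 15 passing as higher and 0 as lower. The 20 after ATP6V0A2 had 0.71 and 0.69, with 16 and 15 passing as higher and 1 as lower. The rest of chromosome 12, 481 expressed genes, had 0.05 and 0.03. Within each side the nearest genes were close to the members and the further ones lower, a division made after the values were seen. The 4 nearest before were RNF34, KDM2B, ORAI1 and TMEM120B, with a median of 1.69 in CD90+/CD133+ cells and 1.65 in CD90+/CD133- cells, and the 16 before them, GCN1 to ANAPC5, had 0.69 and 0.61. The 6 nearest after, ZNF664 to SLC15A4, had 1.51 and 1.59, and the 14 beyond them, FZD10 to PXMP2, had 0.56 and 0.53. Along the list itself, the first 10 expressed members had 1.09 and 1.16, the next 10 had 1.41 and 1.39, and the last 11 had 1.37 and 1.49.

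Single neighbours differed from those medians. FZD10, a Wnt receptor, was the largest difference of either sign among the flanking genes and ran the other way, with log2 fold changes from limma of -3.17 (standard error 0.43, adjusted p = 0.00115) in CD90+/CD133+ cells and -2.75 (standard error 0.57, adjusted p = 0.0112) in CD90+/CD133- cells. RNF34, a ubiquitin ligase, was at 1.84 (standard error 0.09, adjusted p = 1.05e-05) and 1.70 (standard error 0.08, adjusted p = 9.79e-06). ORAI1, the pore of the store-operated calcium channel, was at 1.95 (standard error 0.11, adjusted p = 1.70e-05) and 1.67 (standard error 0.07, adjusted p = 9.77e-06). BRI3BP was at 1.85 (standard error 0.10, adjusted p = 1.50e-05) and 1.64 (standard error 0.17, adjusted p = 0.000399), while TMEM120B, directly before RHOF, was at 0.26 and -0.06 and did not pass. Between the members lay 3 more expressed genes. MTRFR, a release factor of mitochondrial ribosomes beside MPHOSPH9, was at 1.86 (standard error 0.12, adjusted p = 2.98e-05) and 1.60 (standard error 0.13, adjusted p = 0.000118) by limma. LINC02985 was at 0.69 and 0.58 and passed in both, and LINC01089 at 0.45 and 0.15 and passed in neither.

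**Figure D3:**
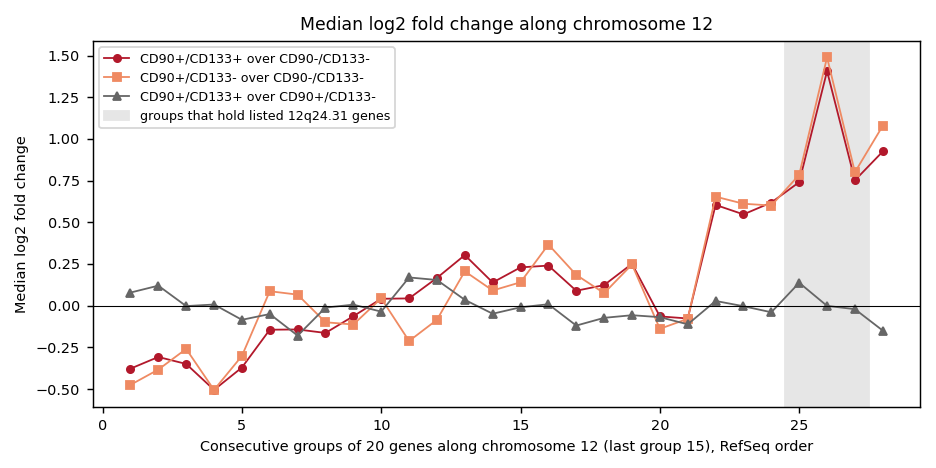
Median log2 fold change of consecutive groups of 20 expressed genes along chromosome 12 (last group 15) for 3 comparisons; the grey band marks groups that hold listed genes. From the group of GLTP to the end of the chromosome the medians of both comparisons with CD90-/CD133- cells lie between 0.55 and 1.49, with the peak at DIABLO to TMED2, while the first 5 groups lie between -0.26 and -0.51.

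Along the whole chromosome, groups of 20 expressed genes in order gave medians for CD90+/CD133+ and CD90+/CD133- cells over CD90-/CD133- cells of -0.38 and -0.48 at the start of the short arm, and of -0.08 in each for RIC8B to MVK. The next group, GLTP to MAPKAPK5, was at 0.60 and 0.65. The group from DIABLO to TMED2, which holds 19 members, was at 1.41 and 1.49, the highest of the 28 groups in both comparisons. The last group, NOC4L to ANHX, was at 0.92 and 1.08. The plot of medians along chromosome 12 shows this course. Between the CD90+ fractions the medians stayed between -0.18 and 0.17 in every group.

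Promoter sequence was looked at because members moved together while LRRC43 did not. RefSeq windows of GRCh38.p14, from 250 bases before to 50 after an annotated start, were found for 28 of the 37 members and 25 of the 31 expressed ones. Taking for each gene the window with the most CG dinucleotides, the expressed members held 5 to 54 with a median of 37 (quartiles 29 and 43), and the 8381 expressed genes of the array found in the table held a median of 29 (quartiles 22 and 37). LRRC43 was the member with 5. ZCCHC8 with 19, RILPL2 with 23, OGFOD2 and RSRC2 with 27 each and SBNO1 with 28 lay under the expressed members' lower quartile too. All of these passed as higher in both CD90+ fractions. B3GNT4 and TCTN2, which did not pass either, had no window. Whether CG content goes with the change was not tested. TATAAA, searched on both strands, was in the windows of 1 of 25 expressed members (4.0%), against 7.89% of the 8381 genes, and ACGTG or GCGTG on either strand in 19 of 25 (76.0%), against 71.1%. A match is a description of letters and not a site. The stretches printed show 2 pairs of head-to-head starts and the start of LRRC43, 5' to 3' on the plus strand, with each CG in capitals.
EIF2B1 to GTF2H3, all 142 bases between the starts, chr12:123633687-123633828: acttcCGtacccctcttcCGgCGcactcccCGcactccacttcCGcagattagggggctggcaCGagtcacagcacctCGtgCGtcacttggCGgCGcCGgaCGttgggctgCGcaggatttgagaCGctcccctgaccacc
MPHOSPH9 to MTRFR, all 294 bases between the starts, chr12:123233142-123233435: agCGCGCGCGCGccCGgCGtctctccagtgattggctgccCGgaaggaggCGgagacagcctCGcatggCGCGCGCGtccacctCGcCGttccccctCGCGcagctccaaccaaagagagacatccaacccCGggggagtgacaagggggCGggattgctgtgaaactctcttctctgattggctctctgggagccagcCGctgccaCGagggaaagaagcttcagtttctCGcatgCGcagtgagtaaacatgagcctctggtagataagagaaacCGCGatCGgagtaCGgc
LRRC43, the 250 bases before the start, chr12:122167469-122167718: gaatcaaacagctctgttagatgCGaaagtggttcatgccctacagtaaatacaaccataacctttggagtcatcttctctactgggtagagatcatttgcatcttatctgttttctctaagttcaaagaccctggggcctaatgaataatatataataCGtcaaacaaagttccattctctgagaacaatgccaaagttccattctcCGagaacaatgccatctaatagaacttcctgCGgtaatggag
These stretches held 14, 28 and 4 CG. The first lies between EIF2B1 (log2 fold change 1.45 in CD90+/CD133+ cells, 1.32 in CD90+/CD133- cells) and GTF2H3 (0.61 and 0.66, or 1.77 in each by its second probe set). The second lies between MPHOSPH9 (2.85 and 2.82) and MTRFR (1.86 and 1.60).

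Genes that work with the members, nearly all on other chromosomes, had medians near 0. For 16 complexes or pathways that a member belongs to, 98 partner genes were expressed, 3 of them on chromosome 12. In CD90+/CD133+ cells 15 passed as higher than in CD90-/CD133- cells, 17 as lower and 66 did not pass, with a median log2 fold change of -0.04. In CD90+/CD133- cells it was 12, 20 and 66, with a median of -0.10. With the replicate number as a block, 15 passed as higher and 22 as lower in CD90+/CD133+ cells (8 calls gained, 3 lost), and 14 and 28 in CD90+/CD133- cells (12 gained, 2 lost). Of all 10128 expressed genes, 2300 passed as higher and 2458 as lower in CD90+/CD133+ cells with the block, against 1701 and 1668 without. In CD90+/CD133- cells these counts were 2130 and 2246, against 1616 and 1563. Nothing is read from the calls gained. At the floor of 16, no partner was above the member of its list in either fraction. The members were chosen as higher in these comparisons, so this order was largely set in advance and nothing is read from it. With values under 64 set to 64, BCL7A fell to 0.10 in CD90+/CD133+ cells. Its partner ACTL6A was at 0.68 there at the floor of 16. All 4 other subunits of eIF2B lay between -0.44 and 0.13 in CD90+/CD133+ cells and between -0.56 and 0.11 in CD90+/CD133- cells, and none passed without the block, while with it EIF2B3 passed as lower in CD90+/CD133- cells at -0.56 (limma adjusted p = 0.0117, against 0.0847 without). Of 8 other TFIIH subunits measured, 2 passed as higher and 1 as lower in CD90+/CD133+ cells and 0 in CD90+/CD133- cells, within -0.30 and 0.39, and the block added MNAT1 as lower in CD90+/CD133- cells (-0.16). Of the 12 other proton pump subunits 2 passed as higher and 4 as lower in CD90+/CD133+ cells, and 2 and 6 in CD90+/CD133- cells. There ATP6V1A, a catalytic subunit, was at 0.64 (standard error 0.07, adjusted p = 0.000308) and 0.73 (standard error 0.09, adjusted p = 0.000934) by limma, ATP6V1G1 at -0.65 (standard error 0.08, adjusted p = 0.000893) and -0.68 (standard error 0.17, adjusted p = 0.0256), and ATP6V1E1 at -0.40 (standard error 0.07, adjusted p = 0.00499) and -0.65 (standard error 0.06, adjusted p = 0.000286).

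Among the partners of chromatin genes, RBBP5, a core subunit of the SETD1B complex, was the nearest to its member in CD90+/CD133- cells. Its log2 fold change from limma was 0.71 (standard error 0.11, adjusted p = 0.00198) in CD90+/CD133+ cells and 0.99 (standard error 0.09, adjusted p = 0.000222) in CD90+/CD133- cells. CXXC1, which brings the same complex to CG-rich DNA, was at -0.94 (standard error 0.11, adjusted p = 0.000628) and -1.11 (standard error 0.09, adjusted p = 0.000108). Of 12 other BAF subunits 2 passed as higher and 2 as lower in CD90+/CD133+ cells, and 2 and 1 in CD90+/CD133- cells, or 3 and 3, and 2 and 2, with the block. WDR5, a further core subunit of the SETD1B complex, was at -0.34 and -0.50 and passed as lower in both only with the block. RBM7, the RNA-binding partner of ZCCHC8, was at 0.36 (standard error 0.09, adjusted p = 0.0188) and 0.52 (standard error 0.08, adjusted p = 0.00291) by limma, and with the block its call in CD90+/CD133+ cells was lost (adjusted p = 0.0711). MCTS1, the partner of DENR, was at -0.15 (standard error 0.10, adjusted p = 0.402) and -0.36 (standard error 0.10, adjusted p = 0.0420), and with the block passed in CD90+/CD133+ cells too (limma adjusted p = 0.0457). VPS16, which binds VPS33A directly, was at -0.74 (standard error 0.10, adjusted p = 0.000914) and -0.64 (standard error 0.09, adjusted p = 0.00205). RAB36, of the list of Rab effectors and their GTPases, was at -0.49 (standard error 0.11, adjusted p = 0.0147) and -0.55 (standard error 0.11, adjusted p = 0.00880), and with the block its call in CD90+/CD133+ cells was lost (limma adjusted p = 0.0678). RAB10, whose phosphorylated form RILPL1 and RILPL2 bind, was at 0.27 (standard error 0.09, adjusted p = 0.0752) and 0.54 (standard error 0.06, adjusted p = 0.000392), and ARRDC4, a target of MLXIP, at 0.45 (standard error 0.35, adjusted p = 0.495) and 0.97 (standard error 0.28, adjusted p = 0.0434). Of the 3 expressed genes in the MLXIP list, ARRDC4 alone passed. TXNIP of that list was at 0.01 (standard error 0.73) and 0.27 (standard error 0.70), and MLX at 0.13 and 0.03.

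**Figure D4:**
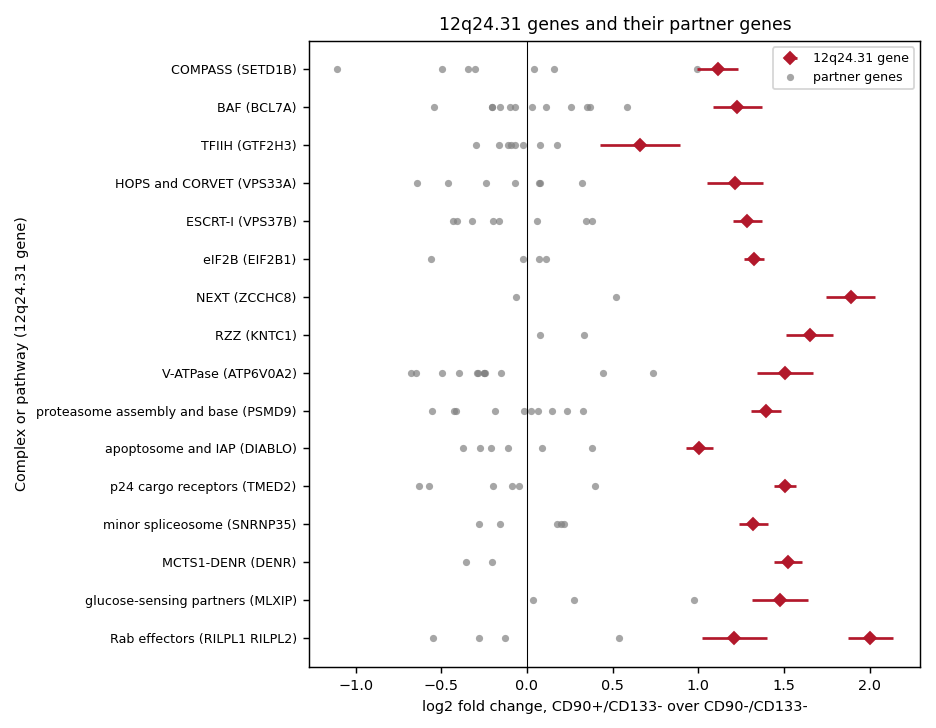
Log2 fold change of CD90+/CD133- over CD90-/CD133- cells for 12q24.31 genes (red diamonds, bars are standard errors from limma) and for the expressed partner genes of the same complex or pathway (grey circles), 1 list a row. No grey circle lies to the right of the diamond of its row, the nearest being RBBP5 at 0.99 beside SETD1B at 1.11. The 12q24.31 genes were chosen as higher in this comparison, so this order was largely set in advance.

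Between the 2 CD90+ fractions no member passed the test. This comparison shares its arrays with the other 2. In CD90+/CD133+ over CD90+/CD133- cells 0 of the 31 expressed members passed as higher and 0 as lower by limma, also with the replicate number as a block and with the methods' t-test after Benjamini-Hochberg adjustment, where of all genes tested 0.0152% passed as higher and 0.0354% as lower. Without adjustment 8 of the 31 had a p under 0.05, as did 1795 of all 10128 expressed genes. The median log2 fold change was -0.03, the SD 0.22 and the range -0.50 to 0.37, beside a median of 0.001 and an SD of 0.23 over all expressed genes. Of the 31, 1 had every CD90+/CD133+ array above every CD90+/CD133- array, 7 were higher in all 5 pairs and 5 lower. These counts were 273, 1659 and 1492 of all 10128 expressed genes, so nothing is read from either trait in the genes below. DIABLO had the largest positive value, 0.37 (standard error 0.09), with all 5 CD90+/CD133+ arrays above all 5 CD90+/CD133- arrays and adjusted p = 0.176. ARL6IP4 was at 0.35 (standard error 0.12), higher in 5 of 5 pairs (adjusted p = 0.282), and B3GNT4 at 0.33 (standard error 0.12), higher in 5 of 5 pairs (adjusted p = 0.307). BCL7A had the largest negative value, -0.50 (standard error 0.14), lower in 5 of 5 pairs (adjusted p = 0.211), and SBNO1 was at -0.45 (standard error 0.25), lower in 4 of 5 pairs (adjusted p = 0.544). A p that misses the threshold does not show that the fractions are alike in these genes.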

How the data were processed

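Total RNA of FACS-sorted PEO1 fractions was hybridized to Affymetrix U133 Plus 2.0 whole-genome arrays. The deposited data are intensities on a linear scale, 1 per probe set, after the authors' own cross-correlation normalization. Their lowest value is 5. The software that summarised the probes is not given in the sources used here. Arrays have no depth, so their number (5 per fraction) limits the precision.

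Every intensity below 16 was raised to 16 ahead of the log2 step. Of 54675 probe sets, 62 controls were left out, 41091 named 1 gene, 1801 several and 11777 none in the annotation used. For each of 19775 genes the brightest probe set by mean of the 15 arrays was kept. Gene numbers of 41037 probe sets were found in RefSeq, which gave the gene order. Array medians were 29.4 to 32.4, 32.7% to 34.5% of probe sets lay under 16, no 2 arrays were identical and the highest correlation was 0.997. Fractions were compared 2 at a time, on their own arrays and without a block, in limma 3.58.1 under R 4.3.3, 2-sided, at an adjusted p under 0.05 (Benjamini-Hochberg, all genes). The methods named a 1.5-fold difference of averages and no test for the arrays. The fit was tested on simulated data first. Tables and figures used Python 3.11.15 with pandas 2.3.3 and matplotlib 3.10.9.

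The deviations from the group mean correlated between CD90+/CD133- and CD90-/CD133- arrays of the same number at 0.78, 0.40, 0.20, 0.47 and 0.65 for replicates 1 to 5, and all such correlations in the other comparisons were at least 0.21. Between arrays of different numbers the highest correlation was 0.196 in that comparison. It was 0.23 in CD90+/CD133+ with CD90-/CD133- arrays and 0.40 between the CD90+ fractions. Replicate 3 of CD90+/CD133+ with CD90-/CD133- arrays, at 0.21, did not correlate best with its own number. The pairing therefore comes from this check, which was weak for replicate 3, and from codes the labels share within a number. Blocking on that number was an alternative. Replicates 4 and 5 share 1 code.

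The members and the lists of roles, partners and markers were chosen with earlier results of these data known. Values on each array are given for the 8 expressed members with the largest change in CD90+/CD133- cells, the 4 nearest to 0, and the 2 just above and just below a mean of 64. In those partner lists where passing genes are named, up to 3 were taken by size of change in CD90+/CD133- cells, as were 4 flanking genes. EIF2B3, MNAT1, WDR5, MLX, TXNIP, eIF2B, TMEM120B and the genes between members were named after their values were seen. Alternatives were a block on replicate number or on label code, quantile normalization, median centring, no floor and a floor of 64, the mean of probe sets, a looser and a stricter limit on brightness for expressed members, only genes over 64 tested, an intensity trend, all fractions in 1 fit, the methods' t-test, 1.5-fold between linear means, and each array or replicate number left out. The separate values of 1 member are not reported here.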

Additional observations from a re-analysis of the deposited data

Results flagged for a closer look

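Among 93 groups of 5 arrays of the 31 expressed members, 4 held an array whose gap to the nearest other array, divided by the range of the group, was over 0.71, the level that chance passes in about 1 in 20 groups. DENR on CD90+/CD133+ replicate 2 was at 2946, below the 3370.6 to 3475 of the other 4 arrays of that fraction (gap over range 0.815). CDK2AP1 on CD90+/CD133+ replicate 5 was at 4750.2, below 5829.8 to 6313 (0.720). PSMD9 on CD90-/CD133- replicate 5 was at 357, below 450.4 to 481 (0.782). B3GNT4 on CD90-/CD133- replicate 5 was at 66.9, below 98.1 to 110.2 (0.767).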

How the results depend on the processing

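The counts of expressed members that passed as higher were 23 to 28 in CD90+/CD133- cells and 23 to 29 in CD90+/CD133+ cells over all alternatives that kept every array, each within 1.5 times the reported 27, and 0 passed as lower. Some alternatives counted fewer members, and among those with a CD90-/CD133- mean over 64 it was 23 of 27 in each fraction. In CD90+/CD133- cells the alternatives that kept all 31 members gave 27 or 28. With the replicate number as a block, pairing same-numbered arrays, the counts were 27 in CD90+/CD133- cells, 28 in CD90+/CD133+ cells and 0 between the CD90+ fractions, and the block changed no other call of an expressed member, while the dim PITPNM2 gained one in CD90+/CD133+ cells. With 1 array or number left out, 26 to 27 passed as higher and 0 to 1 as lower in CD90+/CD133- cells, and 25 to 28 as higher in CD90+/CD133+ cells. The median log2 fold change then ranged from 1.28 to 1.34 in CD90+/CD133- cells and from 1.28 to 1.38 in CD90+/CD133+ cells.

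Against the spread of the median over the 5 pairs, the median in CD90+/CD133- cells moved with the mean of probe sets (1.21). In CD90+/CD133+ cells it moved with the mean of probe sets (1.13), quantile normalization (1.33), a stricter limit on brightness (1.38), and 2 alternatives chosen after seeing the data, members with a CD90-/CD133- mean over 64 (1.37) and no cross-hybridizing probe sets (1.37). The causes were not tested. The spread among members kept within the pairs' own variation. Single members turned sign only near 0: in CD90+/CD133+ cells LRRC43 (-0.0505 to 0.1355 with 1 array or number left out), CFAP251 (-0.1018 to 0.048 likewise, and 0 with a floor of 64) and CCDC62 (-0.0193 to 0.0182 likewise, 0.0134 with quantile normalization, 0.0915 with no floor, 0 with a floor of 64), and in CD90+/CD133- cells CFAP251 (0 with a floor of 64). Counting each member under each alternative, sign and side of the threshold were kept by 490 values in CD90+/CD133- cells (6 gained a call, 2 lost it, 1 turned) and by 472 in CD90+/CD133+ cells (18, 2 and 7).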
